A study of Mus musculus with 48 samples.

Results

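Conventional CD4 T cells are helper T cells that carry the CD4 co-receptor and lack the regulatory factor Foxp3. In these data they were chosen by their own transcripts. A cell was a member if it had at least 500 detected genes and at least 2 UMIs (unique molecular identifiers, each 1 captured transcript) of Cd3e, Cd3d and Cd3g together. It also needed at least 1 UMI of Cd4, no UMI of Cd8a, Cd8b1, Foxp3 or the macrophage gene Ms4a7, and at most 1 UMI of the cell cycle genes Mki67 and Top2a together. The rule selected 355 of the 9172 deposited cells of the whole-tumor mix, 8726 of which had at least 500 genes.

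Helper T cells recognise peptides on MHC class II molecules and act mainly through what they secrete and through membrane ligands such as CD40 ligand. Different transcription factors mark their classical programmes: T-bet (Tbx21) for interferon-gamma producers, Gata3 for type 2 cells and Bcl6 for follicular helper cells. In brain tumors they enter from the blood and share the tissue with CD8 T cells, regulatory T cells and large numbers of macrophages and microglia.

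The study implanted GL261 mouse glioblastoma cells into the striatum of male C57BL/6 mice 6 weeks old. The tumor cells carried a retroviral short hairpin against Selp, the P-selectin gene (shSELP), or a negative control hairpin (shNC), after puromycin selection. For each group 3 brains were pooled, and 3 fractions (CD11b-positive cells, other CD45-positive cells and all that remained) entered the mix in equal parts, which does not keep the tumor's own proportions. Collection was on day 16 by the labels and day 17 by the study's methods, and each group has 2 libraries. The hairpins were in the tumor cells, and the T cells are the hosts' own. It is not stated whether the 2 libraries of a group come from separate pools, so they may be technical replicates, and every test below measures the spread between libraries, not between mice.

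The targeted gene checks the labels weakly at this depth. Over all cells Selp had 17, 25, 21 and 21 UMIs in shNC 1, shNC 2, shSELP 1 and shSELP 2, the order of libraries kept throughout. In cells with no UMI of Ptprc, the gene of CD45, it had 11, 13, 0 and 5 UMIs. The knockdown was made in tumor cells, and other cells without CD45 are among those counted here. Conventional CD4 T cells held 0, 0, 0 and 1 UMI of Selp.

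The libraries held 2289, 2297, 2293 and 2293 cells with 22945972, 22626413, 17398121 and 25589350 UMIs in all. They gave 69, 78, 69 and 139 conventional CD4 T cells, with median depths of 4360, 6225.5, 4436 and 7284 UMIs and summed depths of 362751, 593470, 403908 and 1147826 UMIs. The shSELP 2 library stands apart, with the most members and the deepest ones. Between libraries 5 cell barcodes were shared, 2 by shNC 2 and shSELP 2 and 3 by shSELP 1 and shSELP 2, and 1 of them belonged to a member. Levels below are in CPM: a gene's UMIs per 1000000 UMIs of the same cells in that library. A count of 0 allows up to 3 UMIs, which is 8.27, 5.06, 7.43 and 2.61 CPM in the members of the 4 libraries. Such floors, like the intervals below, cover counting error only.

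The comparison sets were chosen by matching rules. CD8 T cells had at least 1 UMI of Cd8a or Cd8b1 and none of Cd4 (623 cells, 156, 153, 208 and 106 per library). Foxp3 regulatory T cells met the members' rule with at least 1 UMI of Foxp3 (70 cells, 18, 15, 14 and 23). In this small set a count of 0 allows up to 39.2, 34.1, 36.0 and 16.0 CPM. Macrophages and microglia with at least 5 UMIs of C1qa, C1qb and C1qc and none of Cd3 (3379 cells) served as the background class, which should lack T cell transcripts. Median depth was 5787 UMIs in members, 5587 in CD8 T cells, 5072.5 in regulatory T cells and 12236 in the background class. Shares of cells with a UMI are therefore also given after each cell was thinned to 2000 UMIs.

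Trac, a constant part of the alpha-beta T cell receptor that the rule did not use, had 1339.8, 1196, 1151 and 1156 CPM in the members. It marks T cells in general, with a UMI in 86.3% of members, 84.1% of CD8 and 81.4% of regulatory T cells after thinning, against 0.315% of the background class (98%, 96.3%, 98.6% and 2.55% unthinned). Median counts were 25 UMIs of the 3 Cd3 genes and 2 of Cd4, values that chose the cells and are given as a description. At the edges of the rule, 108 members with exactly 1 Cd4 UMI had 1108 CPM of Ifng and 374 of Ccl1, while the 226 cells that missed the rule for lack of any Cd4 UMI had 279 and 67.6. Those 226 cells were shallower (median 3533.5 against 5026.5 UMIs) and had 425 CPM of the macrophage gene C1qa, against 209 in the 108 members. The 27 cells just outside with 1 Foxp3 UMI had 6.36 CPM of Ifng, 0 of Ccl1 and 2066 of Ctla4, against 1833, 708 and 803 over all members. Cells with 1 cell cycle UMI (105 members) and with 2 (28 cells just outside) had 1688 and 1929 CPM of Ifng. Exactly 2 Cd3 UMIs were found in 1 member, and the 10 cells with 1 Ms4a7 UMI had 205 CPM of Ifng and 1191 of Ccl1.

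Markers of other cell types were measured as lists in the members, and the microglia list is not described. All 11 macrophage markers were detected, led by Apoe, with summed levels of 350.1, 1695, 1847 and 546 CPM, against a mean of 54443 in the background class. All 10 dendritic cell and MHC class II markers were detected, led by Cd74, at 254, 3358, 1773 and 695 CPM. Both lists were lowest in shNC 1 and differed several-fold between libraries of 1 group, and 6 members had 5 or more C1q UMIs. C1qa itself had 526 UMIs in 69 members, 174 of them in 1 cell. All 9 GL261 markers were detected, led by Cd63, and summed to 116, 115, 292 and 106 CPM. Of the NK cell markers 7 of 9 were detected (212, 817, 626 and 375 CPM, led by Fcer1g), with Ncr1 and Klra8 at 0. The NK receptor genes Klre1, Klrk1 and Klri2 had a UMI in 86, 77 and 65 members, and Klrb1c and Klra4 in 1 and 2. The B cell, gamma-delta, neutrophil and red blood cell lists were low. B and plasma cell markers (7 of 9, led by Ighm, with Mzb1 among those at 0) summed to 41.4, 40.4, 17.3 and 56.6 CPM. Gamma-delta and innate-like T cell markers (3 of 8, led by Tcrg-C2, with Trdc, Tcrg-C4, Trdv4, Zbtb16 and Sox13 at 0) summed to 16.5, 3.37, 9.9 and 14.8 CPM. Neutrophil markers (4 of 6, led by S100a9, Retnlg and Cxcr2 at 0) summed to 2.76, 0, 7.43 and 9.58 CPM, and all 5 red blood cell markers were at 0. Fits without the cells with 5 or more C1q UMIs, added after seeing these values, gave 1024 calls against CD8 T cells, 449 against regulatory T cells and 0 for shSELP against shNC, where the fits described below gave 906, 315 and 0. The part of other cell types' RNA was otherwise not tested.

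Ifng, Ccl1, Tnfsf11 and Icos were proposed as markers with results of these data known, so their levels are described without a test. Ifng encodes interferon gamma, which activates macrophages and raises antigen presentation (mm10 chr10:118441046-118445892). It had 1183, 2435, 1604 and 1807 CPM in the members, 958, 282, 364 and 359.5 in CD8 T cells and 0, 22.8, 24 and 53.3 in regulatory T cells. The members were above both other sets in every library, by the smallest margin in shNC 1. A UMI was found in 68.7% of members (52.1% after thinning) and 60.5% of CD8 T cells (38.9% after thinning), against 1.72% of the background class (0.346% after thinning), at median depths of 5787 UMIs in members and 12236 in that class.

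Ccl1, a chemokine that attracts cells with the receptor Ccr8, had 571, 886, 532 and 721 CPM in the members and 281, 27.3, 26.6 and 7.99 in CD8 T cells. The shNC 1 library had the highest CD8 level by a wide margin. Regulatory T cells held 0 UMIs in all 4 libraries, so the members were at least 103-fold higher, with a floor of 3 UMIs over the whole regulatory set. The transcript was found in few cells: 27.6% of members had a UMI (21.4% thinned, CD8 T cells 5.62% and 4.01%, background class 0.237% and 0.0944%), and the 36 members with most UMIs held 83.8% of them. Tnfsf11, the ligand RANKL of the TNF family, had 491, 517, 589 and 670.0 CPM against 114, 30.3, 61.3 and 34.2 in CD8 T cells and 0, 79.7, 24 and 10.7 in regulatory T cells. It was spread over more members, with a UMI in 59.4% (40.5% thinned, CD8 T cells 12% and 5.84%, background class 0.414% and 0%).

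Icos, a costimulatory receptor that T cells raise on activation, did not single out the members. Its level was 918, 714, 696 and 790.2 CPM, above the CD8 range of 372 to 479 and in each library below regulatory T cells, which had 1685, 774, 1465 and 1119 CPM. Nearly all members had a UMI (91.5%, or 72.4% thinned, against 0.799% and 0.283% of the background class).

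**Figure D1:**
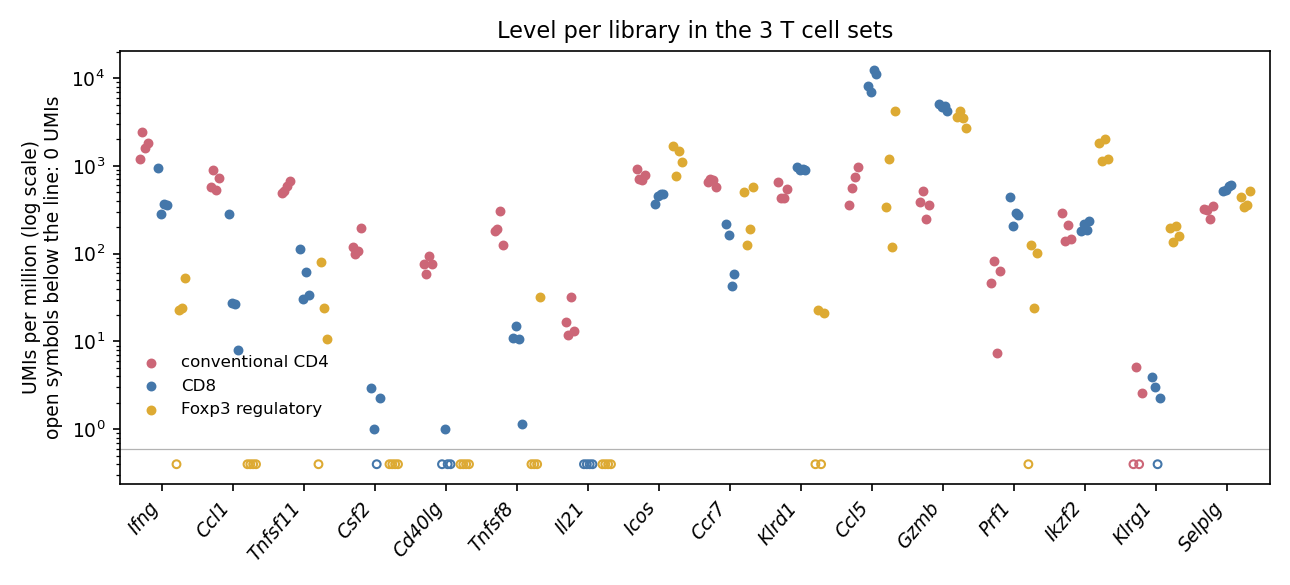
Level of 16 genes in the 3 T cell sets, in CPM on a log scale, with 1 point per library and open symbols for 0 UMIs. Ifng in the members lies between 1183 and 2435 CPM and Gzmb between 250.1 and 517.

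The UMIs of Ifng and Csf2 were concentrated in few members. Ifng was found in 244 members, and the 36 with most UMIs held 75.5% of all its UMIs, up to 552 in 1 cell. The same figure was 87.1% for Csf2 (GM-CSF), found in 71 members, but 47.8% for Tnfsf11 and 30.2% for Icos. Among 351 thinned members, those with a Ccl1 UMI (75 cells) more often had one of Ifng (69.3% against 47.5% of the others), Tnfsf11 (64% against 34.1%) and Csf2 (33.3% against 5.07%). Unthinned, the Csf2 shares were 50% and 8.56%, and the members with a Ccl1 UMI were deeper (median 7515 against 5446 UMIs). Cells with Ccr7, the receptor that guides T cells to lymph nodes, differed in other genes. Of the 95 thinned members with a Ccr7 UMI, 26.3% had one of the tissue-homing receptor Cxcr6, against 60.2% of the rest, and 5.26% against 18% had one of Gzmb. Conversely, 17.5% of members with an Ifng UMI and 37.5% of those without had one of Ccr7. Before thinning, members with a Ccr7 UMI had a median of 7382 UMIs and the others 5098.5. In thinned cells of the background class the shares were 0% for Csf2, 2.01% for Ccr7, 0.157% for Cxcr6 and 0.786% for Gzmb (0.148%, 6.01%, 0.71% and 3.4% unthinned). These shares pool cells of 4 libraries and describe them without a test.

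Lineage-defining factors were low. Tbx21 had 41.4, 32, 19.8 and 23.5 CPM and Gata3 57.9, 50.6, 56.9 and 56.6 CPM. A UMI was found in 16.9% of members for Tbx21 (7.69% thinned, background class 0.0592% and 0%) and in 28.2% for Gata3 (8.55% thinned, background class 1.01% and 0.0629%). Both factors were thus above the background class. Bcl6 had 19.3, 15.2, 9.9 and 10.5 CPM, and the 6.76% of members with a UMI compare with 3.21% of CD8 T cells, 1.43% of regulatory T cells and 19% of the background class (2.28%, 1.34%, 0% and 3.9% thinned). The background class had 20.2, 17.2, 19.2 and 17.6 CPM itself, so its share is no measure of free RNA for this gene. Il2, the T cell growth factor, was sparse as well, at 16.5, 8.43, 4.95 and 3.48 CPM.

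Against CD8 T cells the members differed in many genes outside the rules. With the library as a block, edgeR tested 6779 genes and called 906 at an adjusted p under 0.05, which is 13.4% of them: 497 higher in the members (7.33%) and 409 lower (6.03%). At an unadjusted p under 0.05 there were 1746 (25.8%), and the median log2 fold change over all genes tested was -0.01. The 10 largest called differences upward included the ligand genes Cd40lg, Csf2 and Tnfsf8. Cd40lg, the ligand that licenses B cells and dendritic cells through CD40 (mm10 chrX:57212143-57224042), had 77.2, 59, 94.1 and 75.8 CPM in the members and 1 UMI in all CD8 T cells, a ratio of 300.2 with a 95% counting interval of 53.2 to 11920 (adjusted p = 1.20e-07, edgeR). A UMI was found in 32.7% of members (14% thinned), 0.161% of CD8 T cells and 0.0592% of the background class (0.0315% thinned). Csf2, a growth factor for myeloid cells, had 119, 99.4, 106 and 197 CPM against 2.96, 1.01, 0 and 2.28 (log2 fold change 6.17 ± 0.31 SE, adjusted p = 2.53e-08, edgeR, higher in 4 of 4 libraries). Tnfsf8, the CD30 ligand, had 179, 192, 305 and 125 CPM against 10.9, 15.2, 10.7 and 1.14 (4.27 ± 0.25, adjusted p = 6.49e-08). All 3 of these genes were far apart between the sets in each library. The other 7 of these 10 were Ermn, Lgals7, Wisp1, Penk, Bdh2, Ebi3 and Crabp2, with log2 fold changes from 4.08 to 5.86. Penk encodes the opioid precursor proenkephalin and had 303, 388, 178 and 323 CPM in the members against 37.5, 0, 2.66 and 0 in CD8 T cells.

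Cytotoxic genes were among the largest differences downward. Gzmb, the protease granzyme B that enters target cells and triggers their death, had 383, 517, 250.1 and 361 CPM in the members and 5021, 4682, 4815 and 4176 in CD8 T cells (log2 fold change -3.76 ± 0.15, adjusted p = 2.37e-09, edgeR). Prf1, the pore-forming perforin, had 46.9, 82.6, 7.43 and 63.6 CPM against 437, 209, 287 and 279 (-2.59 ± 0.33, adjusted p = 1.01e-04). Both were lower in all 4 libraries, and the sets did not overlap. Of the 11 cytotoxic granule genes tested, 8 were lower and 1, Srgn, was higher (median log2 fold change -2.07, against -0.01 over all genes). The lower members also included Gzma, Gzmc, Gzmk, Nkg7, Ctsw and the NK receptor chain Klrd1. Gzma in the members came almost wholly from shSELP 2, at 11, 43.8, 4.95 and 625 CPM, with 387 of its 749 UMIs in 1 cell. Klrd1 and Nkg7 were lower by less: Klrd1 had 648, 429.7, 436 and 545 CPM against 983, 888, 918 and 887 (-0.96 ± 0.11, adjusted p = 4.69e-05). The other largest called differences downward were Ly6c2 (-5.59), the chemokine Ccl5 (-4.0, at 361, 566, 740.3 and 978 CPM against 8062, 6988, 12222 and 11106), Cd160, Cd7, Tcrg-C2, Sult2b1 and Dapk2.

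Helper programmes showed mixed counts against CD8 T cells. The 4 proposed markers are left out of the list counts and medians against the other sets. Of 13 other Th1 genes tested, 6 were higher and 4 lower (median -0.02). The interleukin-12 receptor chain Il12rb2 was higher at 79.9, 111, 109 and 116 CPM against 37.5, 54.6, 18.7 and 32 (1.47 ± 0.22), as were Stat4, Il18r1, Il18rap, Tnf and Lta. The transcription factors Tbx21 (-0.72 ± 0.22), Runx3 (-0.53 ± 0.15) and Eomes (-3.31 ± 0.52) and the receptor Ifngr1 were lower. Both directions thus held factors and receptors of the list. All 5 Th17 genes tested were higher (median 1.52): Rora, Ccr6, Ahr, Tmem176a and Tmem176b. Rora led them with 684, 630.2, 795 and 863 CPM against 231, 203, 340.2 and 199. Tmem176b, Tmem176a and Ahr were also found in the background class, in 34.9%, 26.7% and 21.6% of its cells (15.5%, 9.75% and 5% thinned), against 11.5%, 9.58% and 12.1% of members (3.99%, 5.13% and 5.41% thinned). In the same comparison all 7 macrophage markers tested and all 4 dendritic cell and MHC class II genes tested were above 0, with medians of 0.64 and 0.93. Without the cells with 5 or more C1q UMIs all 5 Th17 genes were still called higher (median 1.31), and the part of myeloid RNA below that limit was not tested. Il17f and Il23r of the list were too sparse to test. Of 6 follicular helper genes tested beside Icos, 5 were higher (median 1.61), with Cd200 at 93.7, 103, 114 and 84.5 CPM against 25.6, 15.2, 16 and 9.13. Il21, a cytokine that acts on B cells and CD8 T cells, had 41 UMIs in the members and 0 in CD8 T cells, at least 21.8-fold higher by the floor over the CD8 set. In the Th2 list Areg was higher and Il4ra lower among 4 tested (median 0.45).

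Ligands and receptors were counted next. Among 14 helper and effector cytokines tested beside the markers, 7 were higher and 2 lower (median 0.69). The lower pair was Ccl5 and Xcl1. Of 9 costimulatory genes tested beside Icos, 5 were higher and 2, Cd27 and Cd226, lower (median 0.40). The OX40 gene Tnfrsf4, a costimulatory receptor, had 1464, 1132, 1218 and 1059 CPM against 344, 144, 101 and 67.3 (3.0 ± 0.23, adjusted p = 1.35e-06, edgeR, higher in 4 of 4 libraries). Of 10 inhibitory receptor genes tested Ctla4 was higher and Cd160 lower (median 0.35). Pdcd1, the PD-1 gene, had 339, 279.7, 243 and 315 CPM against 327, 290.1, 385 and 372 and was not called (adjusted p = 0.133, edgeR). Among 8 naive and central memory genes tested Ccr7 and Il7r were higher and Klf2 lower (median 0.26). Ccr7 had 662, 706, 683 and 578 CPM against 215, 165, 42.6 and 59.4.

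Signalling, homing, interferon, stress and cell cycle lists were counted in the same way. Of 15 T cell receptor signalling genes 5 were higher and 1 lower (median 0.13). Of 13 receptor-induced early genes tested 5 were higher, among them Batf (1.02 ± 0.16) and Nfatc1 (0.89 ± 0.18), and 4 lower, among them Myc and Dusp2 (median 0.35). Among 17 homing and residency genes tested 2, Itgb1 and Cd44, were higher and 6 lower (median -0.59). Cxcr6 (589.9, 379, 428 and 589 CPM) and Cxcr3 (33.1, 35.4, 34.7 and 27.9 CPM) were not called. Of 14 interferon-response genes tested 1, Ifi27l2a, was higher and 3 lower (median -0.31). Of 14 immediate early and heat-shock genes, which cell dissociation is known to induce, 1 was higher and 5 lower (median -0.32). Of 11 cell cycle genes outside the rule 2 were lower, Mcm3 and Hmgb2 (median -0.47). Among other cell types' markers tested, C1qa was called higher (1.65 ± 0.51, adjusted p = 0.0474, edgeR) at 46.9, 320.2, 503 and 101 CPM against 34.5, 33.4, 46.2 and 142. Of the NK list Klri2 was called higher (1.46) and Klre1 (-1.25) and Klrk1 (-1.81) lower, and Tcrg-C2 was called lower (-3.04).

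The count moved with depth, tool and library. It was 396 of 3195 genes tested with cells thinned to 2000 UMIs, 460 of 6779 with DESeq2 and 602 of 6890 without shNC 2. Scaling by total UMIs instead of TMM gave 943 calls, 70.3% of them higher against 54.9% with TMM, and the median of all genes was 0.10 against -0.01. With no filter on low counts the number of calls was 1243 of 15288 genes, 48.8% of them higher, and without cells with 5 or more C1q UMIs 1024 of 6632.

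The gene of the P-selectin ligand was described on its own because the knocked-down gene encodes its partner. Selplg, which encodes PSGL-1 (mm10 chr5:113818536-113832644), had 323, 315, 250.1 and 352 CPM in the members and 516, 535, 595 and 611 in CD8 T cells (log2 fold change -0.97 ± 0.12, adjusted p = 1.12e-04, edgeR, lower in 4 of 4 libraries). In regulatory T cells it had 444, 341, 360.2 and 522 CPM, a difference that was not called (-0.41 ± 0.18, adjusted p = 0.198). A UMI was found in 76.1% of members and 72.9% of the background class, or 45.3% and 29.5% after thinning. Macrophages and microglia express the gene themselves, so that share is no measure of free RNA. Of 11 genes tested on PSGL-1 and the making of selectin ligands, Spn and Cd44 were higher than in CD8 T cells and Selplg, St3gal6 and Tpst2 lower (median 0.04). Against regulatory T cells B4galt1 and Spn were higher among 6 tested (median 0.22).

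Against Foxp3 regulatory T cells, edgeR tested 3615 genes with the library as a block and called 315 (8.71%), 135 higher in the members (3.73%) and 180 lower (4.98%). At an unadjusted p under 0.05 there were 758 (21%), and the median over all genes tested was -0.00066. The regulatory set is small, 70 cells, so fewer genes could be tested. Cytokine genes were among the largest differences upward. Csf2 and Cd40lg had 0 UMIs in regulatory T cells, which puts the members at least 21.5-fold and 10.9-fold higher by the floor. The same bound was 41-fold for Nrgn, a calmodulin-binding protein known from neurons, with 350.1, 361, 208 and 247 CPM in the members. It was 13.3-fold for the receptor Klre1 and 11.4-fold for the chemokine Xcl1. All 197 Xcl1 UMIs of the members came from 30 cells, 71 of them from 1 cell. Xcl1 fell under the count filter, and so was not tested, with cells thinned, without cells with 5 or more C1q UMIs and without members with Il2ra or Ikzf2. The same held for Csf2, Cd40lg, Klre1, Nmrk1 and Fhl2 with cells thinned and without members with Il2ra or Ikzf2. Nrgn was not tested without those members. Klrd1, a partner chain of NK receptors, had 648, 429.7, 436 and 545 CPM in the members and 0, 22.8, 0 and 21.3 in regulatory T cells (log2 fold change 5.26 ± 0.41, adjusted p = 3.02e-06, edgeR). Klrd1 thus lay between the 2 other sets in the members, below CD8 and above regulatory T cells. Nmrk1 and Fhl2, with 2 and 1 UMIs in regulatory T cells, were 27.1 (7.43 to 225) and 26.7 (4.73 to 1063) times higher with 95% counting intervals.

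Genes typical of regulatory T cells were lower in the members but not absent. Of the 14 on the list, none of them used by the rule, 13 were tested, 10 were lower and 1, Nrp1, was higher (median -1.19). Ikzf2, which encodes the factor Helios, had 289, 139.9, 210.4 and 148 CPM against 1829, 1149.7, 2017 and 1204 (-2.98 ± 0.16, adjusted p = 5.74e-08, edgeR). Il2ra, the high-affinity chain of the interleukin-2 receptor, had 212, 207, 156 and 209 CPM against 901, 842, 720.5 and 501 (-1.86 ± 0.20, adjusted p = 3.92e-05). Both were lower in all 4 libraries. Against CD8 T cells, in contrast, 8 of 10 list genes tested were higher in the members and none lower (median 1.04). The summed level of the list was 4915, 3367, 3535 and 3665 CPM in the members, with means of 9832 in regulatory and 1692 in CD8 T cells, so the members lay between the sets. Helios was found in 41.4% of members (25.6% thinned) and in 45.9% of CD8 T cells (24.4% thinned), against 4.91% of the background class (1.1% thinned). A UMI of Il2ra or Ikzf2 was present in 241 of the 355 members (39, 53, 47 and 102), and how many of them are regulatory T cells with undetected Foxp3 was not tested. With these members left out, 294 of 1635 genes tested were called against regulatory T cells, 198 of them among the 315. The other largest called differences downward were Klrg1, an inhibitory receptor (-5.95), Tctex1d1, Rapsn, Ighm, Lrrc32, Ltb4r1, Gimap7, Gzmb and Ccr2. Gzmb had 3592, 4269, 3470.4 and 2686 CPM in regulatory T cells, so the members were the lowest of the 3 sets (-3.21 ± 0.15, adjusted p = 2.93e-08). Ccr2, a receptor for monocyte-attracting chemokines, had 57.9, 21.9, 81.7 and 31.4 CPM against 457, 228, 432 and 554.

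The other lists were counted in the same comparison. Of 11 cytokines tested beside the markers, 4 were higher and 1, Il10, lower (median 0.28). Of 8 Th1 genes tested beside Ifng, 3 were higher and 3 lower (median 0.94). Stat4 was higher (1.29 ± 0.21), and Cxcr3 (-1.33 ± 0.35) and Hopx (-1.83 ± 0.23) were lower. Of 7 costimulatory genes tested beside Icos, 5 were lower and Cd40lg was higher (median -0.88). Tnfrsf4 had 3018, 2219.7, 2041 and 1977 CPM in regulatory T cells and was lower in the members (-0.90 ± 0.11), the reverse of its direction against CD8 T cells. Among 8 inhibitory genes tested Pdcd1 was higher (1.55 ± 0.27) and Ctla4 and Entpd1 lower (median -0.13). Nkg7, Klrd1 and Serpinb9 were higher and Gzmb lower among 7 cytotoxic genes tested (median 0.55). Among 4 follicular helper genes tested beside Icos, Sh2d1a and Pdcd1 were higher (median 1.44).

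Early response genes were higher in 4 of 12 tested, with none lower (median 0.56). Bhlhe40, a factor needed for cytokine production by helper cells, had 1069.6, 1051, 1144 and 1213 CPM against 327, 319, 288 and 554 (1.62 ± 0.17, adjusted p = 4.27e-05, edgeR). T cell receptor signalling genes were higher in 3 of 15 and lower in none (median 0.48), and immediate early and heat-shock genes higher in 3 of 12 (median 0.24). Interferon-response genes were lower in 5 of 11 tested and higher in none (median -0.64), with Ifi27l2a at 3377, 4598, 4028 and 3769.7 CPM against 6989, 9357, 9703 and 8149. All 6 macrophage markers and all 4 dendritic cell and MHC class II genes tested were below 0 as well (medians -0.42 and -0.28, none called). Without the cells with 5 or more C1q UMIs, 5 of 11 interferon-response genes were still lower (median -0.56). The part of myeloid RNA below that limit was not tested. Homing genes were higher in 3 and lower in 5 of 14 (median -0.27). None of the 4 Th2, 4 naive and central memory, 4 cell cycle or 1 Th17 genes tested was called by edgeR, with medians of -0.25, 0.07, 0.03 and 0.23. The count of 315 was 192 without shNC 1, 203 with thinned cells and 530 with no filter on low counts. Calls higher in the members were the smaller part of the 315 (135) but the larger part in the latter 2 settings, at 114 and 344. With no filter the median over all genes tested was 0.33.

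**Figure D2:**
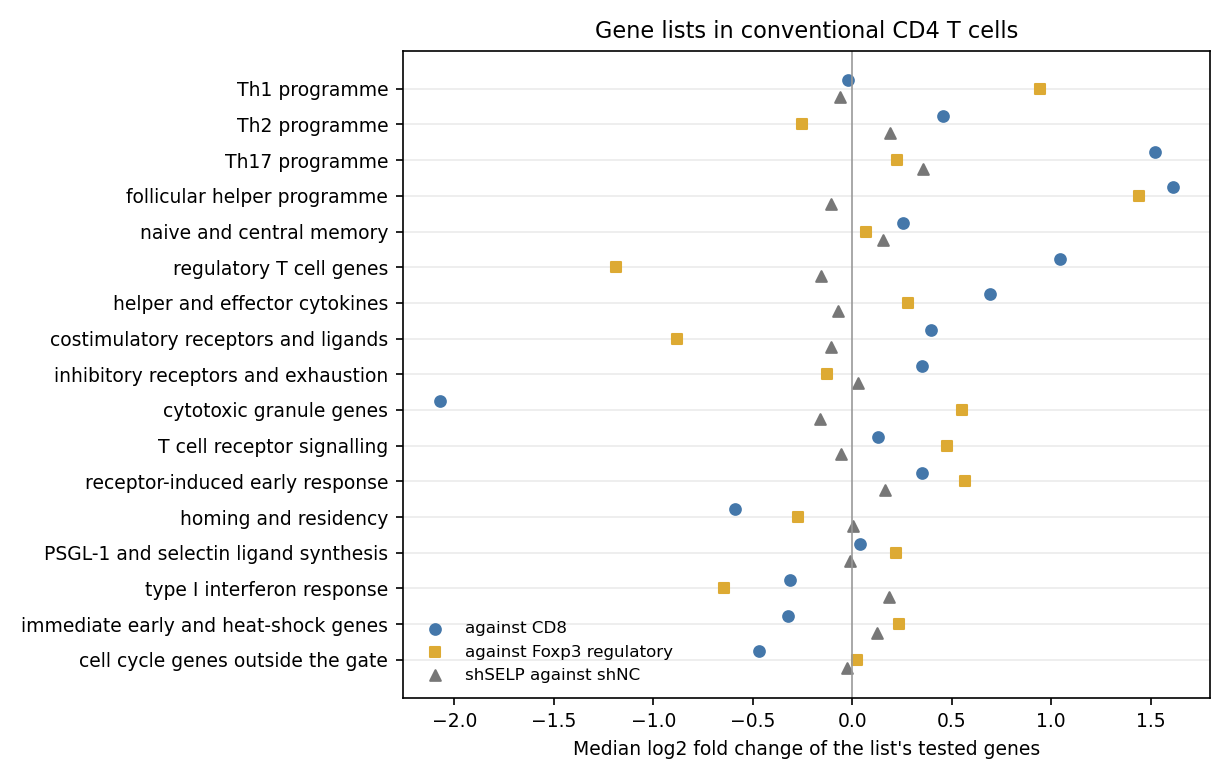
Median log2 fold change of the tested genes of each T cell list, for the members against CD8 T cells, against Foxp3 regulatory T cells, and for shSELP against shNC in the members, with the proposed markers left out of the first 2 comparisons. The cytotoxic list lies at -2.07 against CD8 T cells and at 0.55 against regulatory T cells, while for shSELP against shNC the lists lie between -0.16 and 0.36.

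Whether the tumor's hairpin altered the number of conventional CD4 T cells was read from shares. Among the 3 T cell sets the members made up 28.4% (95% exact Clopper-Pearson interval 22.8 to 34.5), 31.7% (25.9 to 37.9), 23.7% (18.9 to 29.0) and 51.9% (45.7 to 58.0). The shSELP libraries lay on either side of both shNC libraries. Group means were 30.1% ± 2.34 (SD, n = 2) for shNC and 37.8% ± 19.9 (SD, n = 2) for shSELP, a difference of 7.74 points (two-sided exact permutation p = 1, where 2 against 2 libraries cannot go below 0.33). Without shSELP 2 the difference was -6.34 points. Among all cells with at least 500 genes the members made up 3.16%, 3.58%, 3.15% and 6.39%. This share also depends on how the 3 fractions were mixed. Its difference was 1.40 points (exact permutation p = 1), and without shSELP 2 it was -0.22. The ratio of members to CD8 T cells was 0.442, 0.510, 0.332 and 1.31. The members of shSELP 2 were also the deepest. After thinning, its share was 45.0% of the T cell sets, against 23.7%, 25.9% and 17.2% in shNC 1, shNC 2 and shSELP 1. The cause of the higher share in shSELP 2 was not tested.

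**Figure D3:**
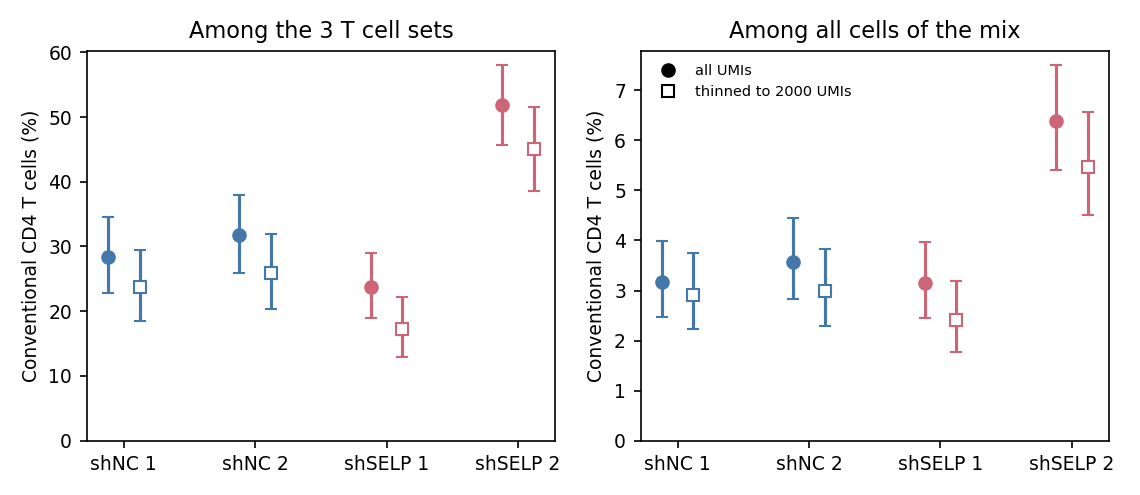
Conventional CD4 T cells as a percent of the 3 T cell sets (left) and of the cells of the mix with at least 500 genes (right) in each library, with exact 95% intervals, before and after thinning each cell to 2000 UMIs. The shSELP 2 library lies at 51.9% of the T cell sets and the other 3 between 23.7% and 31.7%.

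Within the members no gene passed the test for a response to the hairpin. The edgeR fit tested 5400 genes and called 0 (0%), with 166 at an unadjusted p under 0.05 (3.07%) and a median log2 fold change of 0.01. DESeq2 also called 0. In 827 genes (15.3%) both shSELP libraries were above both shNC libraries, and in 956 (17.7%) both were below. For Ifng, Ccl1 and Icos the libraries of the groups overlapped: Ifng had 1183, 2435, 1604 and 1807 CPM (-0.08 ± 0.29), Ccl1 571, 886, 532 and 721 (-0.20 ± 0.25) and Icos 918, 714, 696 and 790.2 (-0.11 ± 0.17). Tnfsf11 had 491, 517, 589 and 670.0 CPM, with both shSELP libraries above both shNC libraries (0.34 ± 0.17, adjusted p = 0.999, edgeR). Selplg, the gene of the P-selectin ligand, had 323, 315, 250.1 and 352 CPM (-0.05 ± 0.22), and its groups overlapped. Gzmb had 383, 517, 250.1 and 361 CPM, with both shSELP libraries below both shNC libraries (-0.53 ± 0.25), and Lag3 198, 174, 215 and 215, with both above (0.24 ± 0.19). The groups overlapped for Prf1 (46.9, 82.6, 7.43 and 63.6 CPM, -0.60 ± 0.59) and Pdcd1 (339, 279.7, 243 and 315 CPM, -0.11 ± 0.21). None of these was called.

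The genes of smallest p are given as values without a call. Upward these were Gm12840 (108, 113, 218 and 244 CPM, log2 fold change 1.09 ± 0.20), Ifit3 (19.3, 38.8, 86.7 and 79.3 CPM, 1.42 ± 0.32), Rnaset2a, Snrpg (174, 199, 344 and 314 CPM, 0.83 ± 0.19) and Chchd10. In the background class both shSELP libraries were likewise above both shNC libraries for Gm12840 (20.4, 18.6, 45.7 and 45.8 CPM), Rnaset2a (67.9, 85.8, 124 and 132), Snrpg (101, 106, 142 and 138) and Chchd10 (58.5, 67, 68.1 and 92.8), but not for Ifit3 (67, 100.4, 85.9 and 75.2). In CD8 T cells the same held for Gm12840 (51.3, 70.8, 143 and 143 CPM), Rnaset2a (63.1, 79.9, 86.2 and 139) and Snrpg (263, 259.8, 349 and 376), and in regulatory T cells for Gm12840 (13.1, 22.8, 108 and 48) and Chchd10 (209, 250.4, 468 and 330.4). Snrpg overlapped in regulatory T cells (144, 239, 288 and 192 CPM). These differences were not tested. The share of all genes that separate in this way, upward or downward, was not counted in these other sets. In the members it was 15.3% upward and 17.7% downward. Ifit3 belongs to the interferon-response list, in which 10 of 13 genes tested were above 0 and none was called (median 0.18). Downward they were Irf8 (190.2, 243, 121 and 123 CPM, -0.82 ± 0.21), a factor of myeloid and lymphoid cells, Nrgn (350.1, 361, 208 and 247 CPM, -0.62 ± 0.19), Plekhb2, Crip1 and Card19. Of these Crip1 was also lower in both shSELP libraries of the background class (340.3, 325, 229.6 and 307 CPM), Nrgn in CD8 T cells (115, 20.2, 4.44 and 16) and Plekhb2 in regulatory T cells (118, 79.7, 12 and 48). Adjusted p was 0.999 for all 10 with edgeR, and 4 of them gained a call under other settings. Without cells with Il2ra or Ikzf2 these were Ifit3 (3.16, adjusted p = 0.0112, edgeR) and Nrgn (-2.07, adjusted p = 0.0171). Without shSELP 1 they were Gm12840 (1.18, adjusted p = 0.00467) and Ifit3 (1.39, adjusted p = 0.00706). With no filter on low counts they were Gm12840 (1.09, adjusted p = 0.00762), Ifit3 (1.43, adjusted p = 0.00627) and Chchd10 (1.14, adjusted p = 0.0285). No T cell list held a called gene. Medians ranged from -0.16 for the cytotoxic and regulatory lists to 0.36 for the 5 Th17 genes tested. The 4 dendritic cell and MHC class II genes tested were all below 0 (median -0.82), with the summed level of that list highest in shNC 2.

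The count of 0 rests on the set of libraries and genes. Leaving out shNC 1, shNC 2, shSELP 1 or shSELP 2 gave 1, 1, 45 and 3 calls, each with a lone library assumed to vary like the others. Testing all genes, however low their counts, gave 32 calls, and leaving out the members with Il2ra or Ikzf2 gave 2. The replicate block, which pairs libraries by number, gave 0 calls. Deviations of replicate 1 from its group mean correlated at r = -0.14 between the groups over 5400 genes, which are not independent, and a block of crossed numbers, added after seeing this, gave 2.

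The difference in response between the members and CD8 T cells was tested directly as an interaction. Of 7646 genes edgeR called 2 (0.0262%), with 271 at an unadjusted p under 0.05 (3.54%). Gzmc, a granzyme, had 13.8, 42.1, 27.2 and 103 CPM in the members and 245, 791, 64.8 and 75.3 in CD8 T cells. In the members the groups overlapped, and in CD8 T cells both shSELP libraries were below both shNC libraries (interaction log2 4.05 ± 0.49, adjusted p = 0.0120, edgeR). Il1r2, a decoy receptor that binds interleukin-1 without signalling, had 234, 354, 248 and 456 CPM in the members and 40.4, 61.7, 3.55 and 12.6 in CD8 T cells (2.96 ± 0.36, adjusted p = 0.0120). Its groups overlapped in the members, and its CD8 levels were lower in both shSELP libraries. Both calls were lost without shNC 1, without shNC 2 and with thinned cells. The log2 difference in these 3 settings was 4.05, 4.05 and 1.94 for Gzmc and 2.95, 3.02 and 2.85 for Il1r2. Both calls were kept without shSELP 1 (Gzmc 4.69, Il1r2 2.69) and without shSELP 2 (2.88 and 3.47). The count itself was 0 without either shNC library, 30 without shSELP 1 and 32 without shSELP 2.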

How the data were processed

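The deposited table holds raw UMI counts per gene and cell (20300 genes). The authors aligned reads to mm10 with Cell Ranger 1.3, by the submitters' notes; labels name kit v2 and the methods v3. The methods exclude cells under 500 genes or over 10% mitochondrial transcripts, and then describe a random draw of equal cell numbers from each group. Of the deposited cells 446 had fewer than 500 genes and were left out of all sets, and 0 exceeded 10%.

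Members and gene lists were chosen with earlier results of these data known. UMIs were summed per library and cell set and tested in R 4.3.3 with edgeR 4.0.16: low counts removed by filterByExpr, TMM factors, the quasi-likelihood F test and Benjamini-Hochberg adjustment over all genes tested at 0.05. Between sets the library was a block, and the 10 genes of the rules were dropped before adjustment. Errors are log2 fold change divided by the square root of F. Python 3.11.15, numpy 2.4.6, pandas 2.3.3, scipy 1.17.1 and matplotlib 3.10.9 gave the other values. Coordinates are from GENCODE M21. The code was tested on simulated data.

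Alternatives were DESeq2 1.42.0, scaling by totals, no count filter, thinning, stricter gates, removal of Scrublet calls (scanpy 1.11.5, expected rate 0.05, 76 of 8726 cells and 3 members), the replicate block and each library left out. Fits without cells holding 5 or more C1q UMIs, the fit against regulatory T cells without members holding Il2ra or Ikzf2, the crossed block and the shares without each library were added after seeing the data.

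Named genes were fixed markers and factors, the 10 largest called differences each way with at least 50 CPM in the higher set and 1 direction in all 4 libraries, and each list's most abundant and called members. For shSELP against shNC, where fewer than 5 genes were called in a direction, they were the 5 of smallest p with a mean of at least 50 CPM. The early response, homing and other lists give counts and medians. A list's median was the same with genes at 0 in the other set placed at their bound. Other genes named, such as Il1r2 and those at the edges of the rule, were chosen after their values were seen.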

Additional observations from a re-analysis of the deposited data

Results flagged for a closer look

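The response to the hairpin differed between conventional CD4 and CD8 T cells for 2 genes by the interaction test of edgeR. For Gzmc the difference was 4.05 on the log2 scale (adjusted p = 0.0120). Its UMIs in the members numbered 5, 25, 11 and 118, with 56 of the 159 in 1 cell. For Il1r2 the difference was 2.96 (adjusted p = 0.0120), with 85, 210, 100 and 523 UMIs in the members and 41, 61, 4 and 11 in CD8 T cells. Over the alternatives the adjusted p ran from 7.93e-21 to 0.431 for Gzmc and from 2.55e-09 to 0.254 for Il1r2. Without shNC 1 it was 0.254 for both, without shNC 2 it was 0.291 and 0.154, and with thinned cells 0.431 and 0.0935. The cause of neither difference was tested.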

How the results depend on the processing

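For shSELP against shNC, edgeR's 0 calls became 32 with no filter on low counts, 2 without cells with Il2ra or Ikzf2, 2 with crossed library numbers as a block, and 1 to 45 with 1 library left out. Of 147 values under alternatives of the 10 genes named for smallest p, 140 kept direction and side of the threshold and 7 gained a call. Another 3 values fell under the count filter and were not tested. Against CD8 T cells the 906 calls became 460 with DESeq2, 396 of 3195 tested with thinned cells, 1243 of 15288 with no filter (48.8% higher against 54.9%), 1024 without cells with 5 or more C1q UMIs and 602 to 762 with 1 library left out. Against regulatory T cells the 315 became 245 with DESeq2, 449 without cells with 5 or more C1q UMIs, 203 of 1361 tested with thinned cells, 530 of 14064 with no filter and 192 to 345 with 1 library left out. Of these calls 42.9% were higher in the main fit, 56.2% with thinned cells and 64.9% with no filter. For the 20 genes of largest difference in each of these comparisons, all 215 and 217 values that could be tested kept direction and call. Another 5 and 23 fell under the count filter and were not tested. These genes were chosen as the largest calls of the main fits, so their tally says little about the other calls. Of all 906 calls 50.8% were kept with DESeq2 and 39.3% with thinned cells, where fewer genes were tested. Of all 315 calls these shares were 77.5% and 51.4%. Against regulatory T cells the 20 take in Ccl1 and Ifng, which were proposed with results known, and Ikzf2. The direction of Ikzf2 is fixed where members with Ikzf2 are left out. Other named genes were not in these tallies. The 2 interaction calls became 4 with DESeq2, 0 with thinned cells, 21 with no filter and 0 to 32 with 1 library left out. The difference in share ranged from -6.34 to 21.8 points among the T cell sets and from -0.22 to 3.02 among cells with at least 500 genes, negative without shSELP 2. The cause of these changes was not tested. Depth limits genes under about 8.27 CPM in the members of the shallowest library. In regulatory T cells the floors are 39.2, 34.1, 36.0 and 16.0 CPM.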

Other observations

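Type 2 and type 17 cytokines were found in very few members. Il13 had 260 UMIs in 7 members, 252 of them in 1 cell, and Il17a had 141 UMIs in 7 members, 92 of them in 1 cell. Areg, which encodes the growth factor amphiregulin, had 1093 UMIs in 89 members, and the 36 with most UMIs held 87.8% of them. A UMI of Areg was found in 25.1% of members (16.5% thinned), against 6.63% of the macrophage and microglia background class (4.34% thinned), at median depths of 5787 and 12236 UMIs. For Il13 and Il17a the background class had 0.0592% and 0.0296%, against 1.97% of members for each (0% and 0% against 0.57% and 1.14% thinned).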
